A study of Rattus norvegicus with 6 samples.

Results

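Stem cells isolated from rat skeletal muscle and cultured with 2 rat sera were compared with cells of the same kind kept in control medium, on 1 expression array per condition. The sera are titled OZ serum and LZ serum. OZ and LZ are read here as obese and lean Zucker rat serum, an expansion that the labels do not spell out. Each of the 2 serum libraries was set against each of the 2 control libraries, titled high glucose control and low glucose control, which gave 4 log2 differences per gene. A gene was kept when all 4 differences had one sign, and its value is the difference nearest to 0, called the weakest difference below. Of 18166 named genes, 5661 met this rule, and of the 11540 genes past a filter on mean signal, 3287 did. Another 2374 of the kept genes had a mean signal below the filter and are not described further.

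All libraries came from skeletal muscle-derived stem cells of male rats, obtained by plating and grown in flasks or six-well plates. Their total RNA was read on the Affymetrix Rat Gene 2.0 ST array, where a group of short probes gives 1 value per probe set. The other 2 of the 6 libraries were given 100 mg/dl cholesterol on a cyclodextrin carrier, or sodium palmitate (the library titled fatty acid). The labels give no serum concentration, exposure time, serum donor or glucose level for the serum cultures, nor which of the controls matches them, which is why both were used. With 1 array per condition no value has an error and no test was possible. Every difference therefore describes these libraries and not the conditions, and the number of arrays limits the precision.

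Serum carries lipoproteins, free fatty acids, hormones, growth factors and proteases to cells in culture. Cells sense sterols through SCAP and INSIG proteins in the endoplasmic reticulum, which hold back the transcription factor SREBP2 when sterol is plentiful, so that genes for cholesterol synthesis and uptake are transcribed less. Fatty acids bind PPAR nuclear receptors, which activate genes for fatty acid oxidation, while SREBP1 drives fatty acid synthesis and LXR responds to oxysterols by activating sterol export.

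The serum and control libraries lay close together. Between OZ serum and the high glucose control, 91 genes were 1.5-fold or more apart, and between OZ serum and the low glucose control 183. LZ serum gave 43 and 179 genes in the same comparisons. The OZ and LZ serum libraries differed from each other by this much in 30 genes, and the high and low glucose controls in 312. The low glucose control was thus the library that stood furthest from the other three by this count, and results that rest on it are given against each control. Median intensity ran from 104.6 to 109.2 over the 6 arrays. Of 14 annotated mesenchymal and muscle progenitor markers, 11 passed the filter, with Thy1, Vim and Pdgfrb among them. The muscle regulators Myod1 and Myog were below the filter in mean signal. The summed intensity of that list was 45324 in OZ serum and 47469 in LZ serum, against 46225 in the high and 45883 in the low glucose control. No endothelial marker of 6 annotated and no erythroid or platelet marker of 3 annotated passed the filter. Markers of other cell types did pass: 5 of 6 annotated for Schwann and neural cells, 5 of 7 for keratinocytes and 4 of 8 for adipocytes. So did 5 of 11 for differentiated muscle and 3 of 10 for macrophages and leukocytes, so these lists alone do not identify the cells.

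Among the 11540 genes past the filter, 1019 were higher in both serum libraries than in both controls (8.83%) and 2268 were lower (19.7%), 28.5% in all. Of the kept genes, 69.0% were therefore on the lower side. That split depended on the scaling of the arrays: after centring each array on its median it was 704 higher and 2790 lower (79.9% lower), and after cyclic loess it was 1280 and 1864 (59.3% lower). It also depended on the filter: without one it was 2452 higher and 3209 lower (56.7% lower). Among 6207 probe sets past the filter that carry no gene name, 1018 were higher and 936 lower. The differences were small. The weakest difference had a median size of 0.04 over the kept genes, and it was under 0.1 in 2665 of them (81.1%). The median of all genes was itself slightly below 0, at -0.04 and -0.05 for OZ serum against the high and low glucose control and -0.01 and -0.02 for LZ serum. These counts come from the same differences that chose the genes, so they describe the selection and support nothing by themselves.

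At least 1.5-fold in all 4 differences, 1 gene was higher (0.00867%), the integrin gene Itga4, and 1 was lower (0.00867%), the glutathione transferase gene Gsta1. Just outside that threshold were the collagenase gene Mmp13 and the annexin gene Anxa8, at 1.48-fold lower. Mmp13 passed the filter on its mean over the 6 arrays, but both of its serum values lay below the filter level of log2 6.74, so no fold is given for it. At a lower threshold, a log2 difference of 0.32, 6 genes were higher (0.052%) and 21 lower (0.182%), and at 2-fold there were 0 in either direction. The only differences within a kind of medium are OZ against LZ serum and high against low glucose, which are conditions of their own and no replicate error. The weakest difference was larger in size than both of these in 229 genes that were higher (1.98%) and 478 that were lower (4.14%).

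The genes that SREBP2 activates formed the gene list with the most members on one side. Of 19 measured, 18 were lower in both serum libraries than in both controls and 0 were higher, against 19.7% lower and 8.83% higher over all genes past the filter. The list's median differences were -0.43 and -0.60 for OZ serum against the high and low glucose control, and -0.22 and -0.37 for LZ serum. In 17 of the 18 the OZ serum library was the lowest of the 4, and the exception was the sterol methyl oxidase gene Msmo1. Of all lower genes past the filter, 69.4% had OZ serum lowest, which was 13.6% of all genes. Array signals from a whole culture cannot tell fewer cells of a type from less RNA per cell.

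The 3 genes of cholesterol synthesis with the largest weakest differences are shown with the 250 bases that precede the annotated gene start in RefSeq (build GRCr8), to set the promoter letters of the genes furthest below the controls beside their values. Capitals mark CCAAT and its reverse complement ATTGG, the letters bound by NF-Y, a factor that works together with SREBP2 at sterol genes. The stretches are chr13:84722755-84723004 on the minus strand for Hsd17b7, chr17:66547525-66547774 on the minus strand for Idi1 and chr4:30991443-30991692 on the plus strand for Cyp51, each read 5′ to 3′ along the gene's strand.
Hsd17b7: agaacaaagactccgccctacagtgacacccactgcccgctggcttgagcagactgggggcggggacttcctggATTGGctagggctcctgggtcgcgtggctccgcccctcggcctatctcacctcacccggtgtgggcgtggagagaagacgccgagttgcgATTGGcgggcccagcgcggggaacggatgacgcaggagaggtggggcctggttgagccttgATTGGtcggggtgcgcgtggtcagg
Idi1: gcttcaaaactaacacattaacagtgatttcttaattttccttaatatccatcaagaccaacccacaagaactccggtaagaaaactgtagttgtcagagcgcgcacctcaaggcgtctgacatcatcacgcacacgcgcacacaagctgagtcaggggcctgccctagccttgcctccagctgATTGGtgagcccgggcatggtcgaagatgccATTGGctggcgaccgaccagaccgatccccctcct
Cyp51: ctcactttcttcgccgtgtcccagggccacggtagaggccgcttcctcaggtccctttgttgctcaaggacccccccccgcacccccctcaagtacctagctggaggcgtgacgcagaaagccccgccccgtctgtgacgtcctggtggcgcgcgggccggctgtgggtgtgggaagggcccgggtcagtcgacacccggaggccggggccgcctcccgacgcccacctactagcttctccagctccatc
The Hsd17b7 stretch held 3 copies, the Idi1 stretch 2 and the Cyp51 stretch none. Of the 19 measured SREBP2 genes, 15 had a promoter in the table, and 12 of these held CCAAT on either strand, compared with 34.0% of all 33469 promoters and 35.2% of the 10358 promoters of genes past the filter. The sterol regulatory element searched as TCACNCCAC on both strands was in 0 of the 15 and in 0.974% of all promoters. That string is rare and its variants were not searched, so 0 of 15 does not show that these promoters lack the element. No stretch of these 15 could hold overlapping matches of both motifs, since the element matched none. A match is a description of the letters and not of binding.

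Hsd17b7 (probe set 17686414), which encodes a ketosteroid reductase of the late cholesterol pathway, had a log2 intensity of 8.89 in OZ serum and 8.94 in LZ serum, against 9.49 in the high and 9.86 in the low glucose control. Both serum values lay at least 0.55 below the nearer control, a step larger than the 0.05 between the sera and the 0.37 between the controls. Idi1 (probe set 17720423), whose enzyme isomerises isopentenyl diphosphate, read 9.32 in OZ serum and 9.41 in LZ serum, against 9.90 in the high and 9.92 in the low glucose control. The controls agreed to within 0.02 here while the weakest serum difference was -0.49. Cyp51 (probe set 17781286), the lanosterol demethylase gene, was at 10.10 in OZ serum and 10.30 in LZ serum, against 10.70 in the high and 10.72 in the low glucose control. Nsdhl, a sterol dehydrogenase gene, stood at 10.30 in OZ serum and 10.32 in LZ serum, against 10.70 in the high and 10.67 in the low glucose control. In these 4 genes each weakest difference was larger than both the difference between the sera and the difference between the controls. They were picked for large weakest differences, which favours this. Serum and control values do not overlap in any kept gene, by the rule that chose it.

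Genes of the early, middle and late steps of the pathway were lower in both sera with smaller weakest differences. At the entry, Acat2, the cytosolic acetoacetyl-CoA thiolase gene, had a weakest difference of -0.33, and the mevalonate-pathway genes Mvd and Pmvk had -0.20 and -0.15. Fdps, which makes farnesyl diphosphate, was at 10.99 in OZ serum and 11.18 in LZ serum, against 11.43 in the high and 11.81 in the low glucose control. For squalene, the synthase gene Fdft1 gave -0.15 and the epoxidase gene Sqle -0.29. Sqle, a controlled step of the pathway, was at 9.88 in OZ serum and 10.27 in LZ serum, against 10.56 in the high and 10.72 in the low glucose control, so the sera differed from each other by -0.39, more than the weakest difference. Lanosterol synthase, Lss, showed the same pattern with a weakest difference of -0.21 and an OZ minus LZ difference of -0.49. The last steps, Dhcr7, Ebp, Sc5d and Msmo1, had weakest differences of -0.15, -0.15, -0.13 and -0.05.

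Genes that regulate the pathway were lower as well. Insig1, which holds SREBP in the endoplasmic reticulum and is itself an SREBP target, was at 9.27 in OZ serum and 9.53 in LZ serum, against 9.99 in the high and 9.78 in the low glucose control. Srebf2, which encodes SREBP2, was at 10.10 in OZ serum and 10.42 in LZ serum, against 10.59 in the high and 10.72 in the low glucose control. Stard4, a sterol transfer protein gene, had a weakest difference of -0.22. Only Tmem97, a sterol-binding membrane protein gene, was mixed in sign: it was at 10.40 in OZ serum and 10.28 in LZ serum, against 10.36 in the high and 10.70 in the low glucose control, so the OZ serum value fell between the controls. Of the 18 genes, 6 had a weakest difference larger than both the OZ minus LZ and the high minus low difference. Of all genes past the filter 4.14% were lower in this way, and of all kept genes, higher or lower, 21.5% met this condition.

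**Figure D1:**
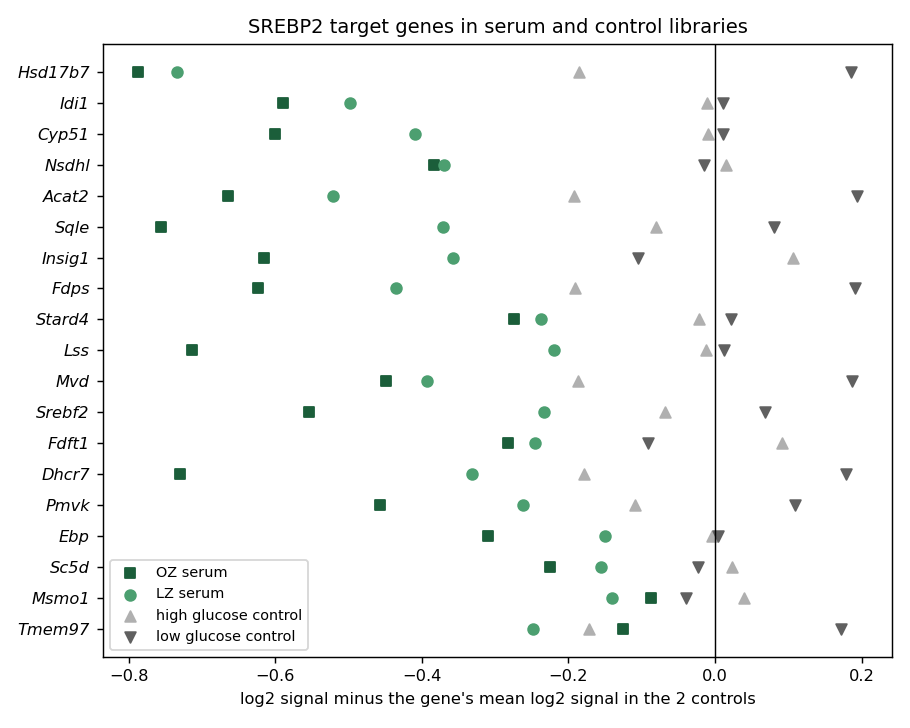
Each row is an SREBP2 target gene and each symbol is 1 library; the x axis is the log2 intensity minus that gene's mean over the 2 controls. The OZ serum (dark green squares) and LZ serum (light green circles) symbols lie to the left of both control symbols in 18 of 19 genes, with OZ serum furthest left in 17.

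The cholesterol and fatty acid libraries are set beside the serum libraries against the same 2 controls, which all of them share, so the values are not independent. In the cholesterol library the SREBP2 list had medians of -1.10 and -1.19 against the high and low glucose control, with 19 of 19 members lower than both (33.6% of all genes past the filter were). The fatty acid library gave -0.35 and -0.52 with 16 of 19 lower (39.7% of all genes). Hsd17b7 was at 8.79 in the cholesterol library, close to its serum levels, while Idi1 was at 6.72 there, far below its serum levels.

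Fatty acid synthesis and desaturation genes were also on the lower side, though here the controls themselves differed. Of 12 measured, 8 were lower in both serum libraries than in both controls and 0 were higher. The shares over all genes past the filter were 19.7% lower and 8.83% higher. The list medians were -0.20 and -0.66 for OZ serum against the high and low glucose control, and -0.10 and -0.46 for LZ serum, while the high minus low glucose median was -0.31. Scd2, a stearoyl-CoA desaturase gene, was at 11.17 in OZ serum and 11.46 in LZ serum, against 11.77 in the high and 12.13 in the low glucose control. Acss2, which activates acetate, was at 8.07 in OZ serum and 8.26 in LZ serum, against 8.52 in the high and 8.88 in the low glucose control. Both genes ran in one order, OZ serum lowest and the low glucose control highest. Scd, the other stearoyl-CoA desaturase gene measured, was at 8.60 in OZ serum and 9.02 in LZ serum, against 9.22 in the high and 9.78 in the low glucose control. Srebf1, which encodes SREBP1, was at 8.01 in OZ serum and 8.39 in LZ serum, against 8.57 in the high and 8.66 in the low glucose control, and the cholesterol library was higher than all of these at 10.20. Fads2, Acly, Elovl6 and Me1 had weakest differences of -0.08, -0.07, -0.07 and -0.05. In none of the 8 was the weakest difference larger than both the difference between the sera and the difference between the controls. Of all genes past the filter, 4.14% were lower in this way.

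Fatty acid oxidation genes and PPAR targets included members on both sides. Of 21 measured, 9 were higher in both serum libraries than in both controls and 4 were lower. All genes past the filter gave 8.83% higher and 19.7% lower, so the lower share was near that of all genes. The list medians were close to 0, at 0.09 and 0.11 for OZ serum and 0.08 and 0.03 for LZ serum against the high and low glucose control. Cpt1a (probe set 17622676), which admits long-chain fatty acids to mitochondria and is a textbook PPAR target, was at 9.64 in OZ serum and 9.39 in LZ serum, against 8.95 in the high and 8.88 in the low glucose control. The weakest difference, 0.44 or 1.35-fold, was larger than the 0.26 between the sera. Both lipid libraries were also above the controls, with Cpt1a at 9.65 in the cholesterol library and 9.90 in the fatty acid library. Acadl, the long-chain acyl-CoA dehydrogenase gene, was at 10.85 in OZ serum and 10.77 in LZ serum, against 10.49 in each control. The fatty acid library stood at 10.86 for Acadl and the cholesterol library at 10.27.

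Several other members of this group were higher by less, or differed more between the sera than from the controls. Pdk4, a kinase that turns off pyruvate dehydrogenase, was at 8.11 in OZ serum and 7.47 in LZ serum, against 7.30 in the high and 6.83 in the low glucose control. Ucp2, a mitochondrial carrier gene, was at 10.61 in OZ serum and 10.24 in LZ serum, against 9.63 in the high and 10.06 in the low glucose control. In both genes the OZ serum value was the highest of the 4, and the difference between the sera exceeded the weakest difference of 0.17. Angptl4, a secreted lipase inhibitor and PPAR target, had a weakest difference of 0.14, Acot2 0.09, Hadha 0.08, Ucp3 0.08 and Ech1 0.01. In 8 of the 9 genes, OZ serum was the higher of the sera. Of all higher genes past the filter, 61.1% had this order, which was 5.4% of all genes. The lower members were Pparg, the adipogenic nuclear receptor gene, at -0.27, Fabp3, a fatty acid binding protein gene of muscle, at -0.22, Slc25a20 at -0.02 and Cpt2 at -0.01. Pparg was at 7.23 in OZ serum and 7.21 in LZ serum, against 7.50 in the high and 7.55 in the low glucose control, and Lpl, the lipoprotein lipase gene, had a weakest difference of -0.25, with both serum values below the filter level.

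**Figure D2:**
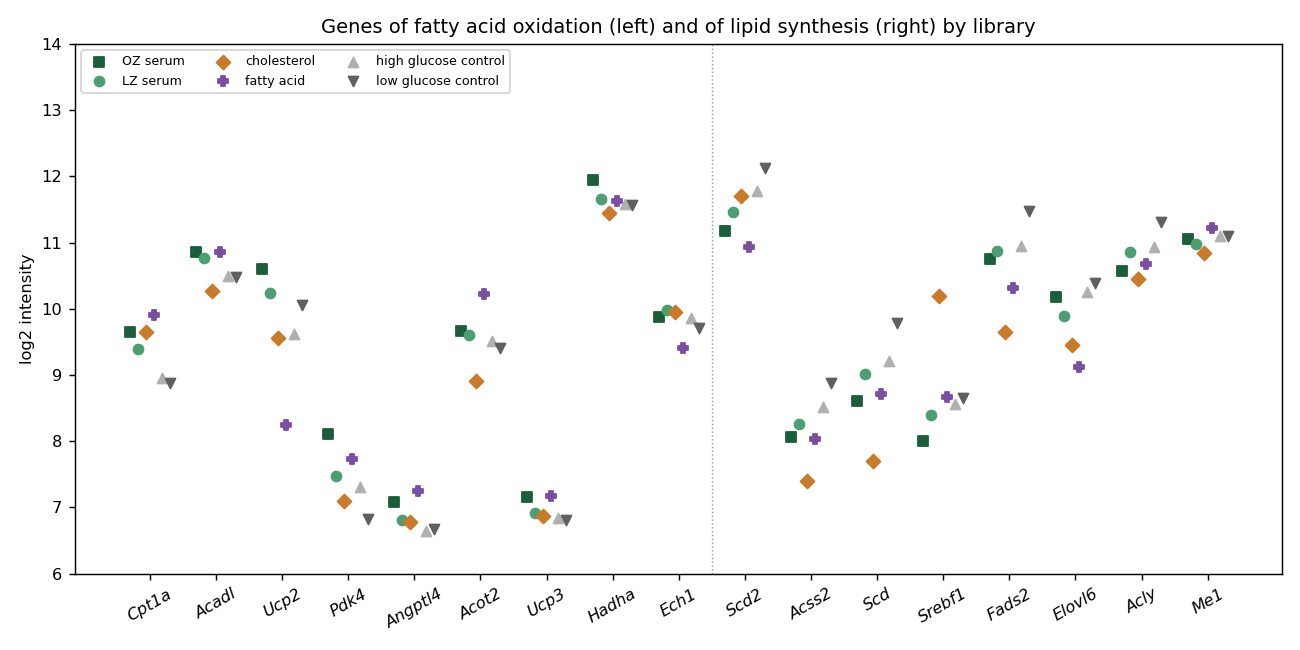
The y axis is log2 intensity and each symbol is 1 library. To the left of the dotted line are the 9 fatty acid oxidation and PPAR genes higher in both serum libraries than in both controls, Cpt1a first, and to the right the 8 fatty acid synthesis genes lower in both, Scd2 first.

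LXR targets gave 0 higher and 5 lower of 11 measured, against 8.83% and 19.7% of all genes past the filter. The lower ones included Scd and Srebf1, which the synthesis list also holds. The sterol exporters showed no one-signed difference. Abca1 was at 9.21 in OZ serum and 9.51 in LZ serum, against 9.41 in the high and 9.33 in the low glucose control. Abcg1 was at 7.58 in OZ serum and 7.44 in LZ serum, against 7.73 in the high and 7.54 in the low glucose control. The cholesterol library, against the same controls, was at 12.27 for Abca1 and 11.65 for Abcg1, above all 4 serum and control libraries.

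The 15 higher genes described next have the largest positive weakest differences once provisional symbols, olfactory receptor genes and small RNA genes are passed over. Their folds ran from 1.19 to 1.57, and 9 had a weakest difference larger than both the OZ minus LZ and the high minus low difference. Of all genes past the filter, 1.98% were higher in this way. The ranking uses the same weakest difference, so the count of 9 follows largely from the choice of genes. Itga4 (probe set 17763219) encodes the integrin subunit through which cells bind fibronectin and VCAM. It was at 10.47 in OZ serum and 10.37 in LZ serum, against 9.63 in the high and 9.72 in the low glucose control. The serum values exceeded the controls by at least 0.65, while the sera differed by 0.10 and the controls by -0.09. The lipid libraries lay on the other side of the controls for Itga4, at 8.80 with cholesterol and 8.78 with fatty acid. Of 12 measured integrin genes, 3 were higher and 3 lower in serum, against 8.83% and 19.7% of all genes. Weakest differences were 0.07 for Itga8, -0.03 for Itga11 and -0.22 for Itga7.

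Mstn (probe set 17864319), the gene of myostatin, a secreted inhibitor of muscle growth, was at 10.08 in OZ serum and 10.43 in LZ serum, against 9.74 in the high and 9.49 in the low glucose control. LZ serum was the highest library, and the weakest difference, 0.34, was about the size of the -0.35 between the sera. Of 9 measured muscle transcription factor and signalling genes, 4 were higher and 2 lower, against 8.83% and 19.7% of all genes. Beyond Mstn the list's differences were small: Pax3, a regulator of muscle progenitors, had a weakest difference of 0.09, Mef2c 0.05 and Myf6 -0.04. Pax7, the satellite cell regulator, was at 7.05 in OZ serum and 7.03 in LZ serum, against 6.90 in the high and 7.04 in the low glucose control, and so showed no separation.

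S1pr1, a sphingosine phosphate receptor gene, was at 8.84 in OZ serum and 8.77 in LZ serum, against 8.46 in the high and 8.06 in the low glucose control. Rapgef4, an exchange factor activated by cyclic AMP, was at 8.20 in OZ serum and 8.30 in LZ serum, against 7.81 in the high and 7.92 in the low glucose control. Rgs4, which shortens G protein signals, had a weakest difference of 0.25, and Mrap2, an accessory protein of melanocortin receptors, 0.31. Taar7h, of the trace amine receptor family, was at 8.21 in OZ serum and 7.38 in LZ serum, against 6.94 in the high and 6.90 in the low glucose control, so that the sera differed by 0.83. The remaining genes of the 15 were Rdh16 (0.36), Ighl13 (0.31), Prp2 (0.28), Eepd1 (0.27), Myh6 (0.27) and Agbl3 (0.25), as weakest differences. Both controls were below the filter level for Ighl13, Eepd1 and Myh6. Outside the 15, the decoy receptor gene Tnfrsf11b (osteoprotegerin), named from the fixed panel, stood at 12.21 in OZ serum and 12.38 in LZ serum, against 11.98 in the high and 10.75 in the low glucose control. Its weakest difference was 0.23 and the controls differed by 1.23, so the size of the serum difference depended on which control was used.

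The 15 lower genes were taken in the same way, by the largest negative weakest differences. Their folds ran from 1.28 to 1.77, and 14 had a weakest difference larger than both the OZ minus LZ and the high minus low difference. Of all genes past the filter, 4.14% were lower in this way. The ranking uses the same weakest difference, so the count of 14 follows largely from the choice of genes. Gsta1 (probe set 17863382), a detoxifying glutathione transferase gene, was at 7.17 in OZ serum and 7.35 in LZ serum, against 8.17 in the high and 8.54 in the low glucose control. The weakest difference was -0.82. Both lipid libraries were above the controls for Gsta1, at 9.51 with cholesterol and 9.13 with fatty acid, so that the serum libraries were the lowest of all 6. Of 22 measured NRF2 target genes, Gsta1 included, 9 were lower, 1 was higher and 12 were mixed in sign, against 19.7% lower over all genes. With a stricter filter, on the brightest array, the list's medians no longer had one sign. Nqo1, a quinone reductase gene of this list, was at 12.05 in OZ serum and 12.31 in LZ serum, against 12.57 in the high and 12.50 in the low glucose control. Akr1b8 and Gstm1 had weakest differences of -0.16 and -0.10.

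Igfbp3 (probe set 17696211), which encodes a binding protein that holds insulin-like growth factors outside the cell, was at 8.76 in OZ serum and 9.14 in LZ serum, against 9.91 in the high and 9.70 in the low glucose control. The weakest difference was -0.55, and the sera differed by -0.39. The lipid libraries were lower still, at 7.06 with cholesterol and 8.28 with fatty acid. Within the insulin-like growth factor axis of 14 measured genes, 3 were lower and 2 higher, the lower share being near the 19.7% over all genes. Igfbp4 had a weakest difference of -0.17, and the growth factor gene Igf1 was on the higher side, at 8.87 in OZ serum and 9.12 in LZ serum, against 8.71 in the high and 8.65 in the low glucose control. Among 21 measured growth factor ligand genes, 7 were lower and 1, Mstn, was higher, against 19.7% and 8.83% of all genes. The 4 medians of that list were of both signs. Hgf and Csf1, the hepatocyte and macrophage growth factor genes, had weakest differences of -0.21 and -0.20.

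**Figure D3:**
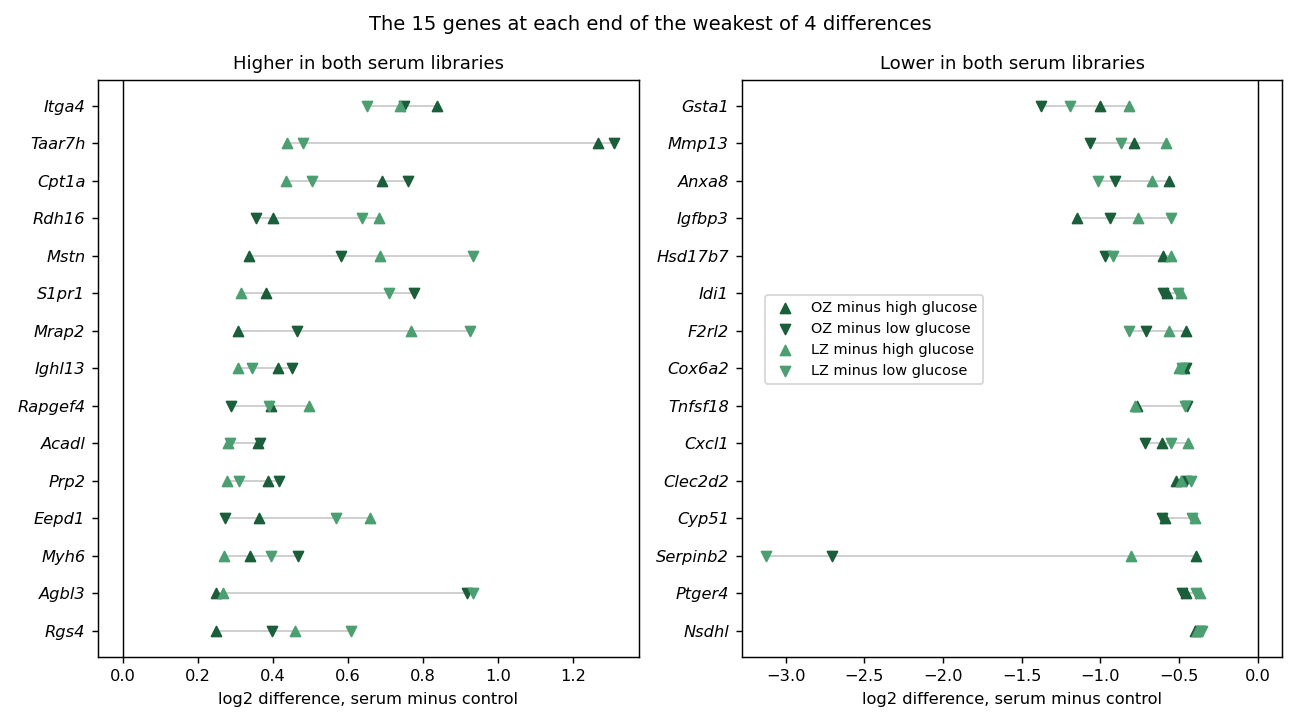
For the 15 named genes at each end, the 4 symbols of a gene are the 4 serum minus control log2 differences, joined by a line, and the x axes differ in scale. Itga4 and Gsta1 have all 4 symbols past 0.58 in size (1.5-fold), and Serpinb2 has symbols far apart because the controls differ.

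Cxcl1, a neutrophil chemokine gene, was at 8.45 in OZ serum and 8.62 in LZ serum, against 9.06 in the high and 9.17 in the low glucose control. Its weakest difference, -0.44, exceeded the difference between the sera (-0.16) and between the controls (-0.11). Cholesterol and fatty acid libraries lay far above the controls, at 10.55 and 11.85. Of 24 measured inflammatory and NF-kB genes, 9 were lower and 2 higher, against 19.7% and 8.83% of all genes. The list medians were -0.22 and -0.14 for OZ serum and -0.09 and -0.04 for LZ serum. Zc3h12a, an RNase gene that restrains inflammation, had a weakest difference of -0.18, and Tnf, on the higher side, 0.16. Of 15 measured interferon response genes, 6 were lower and 1 higher, beside the same shares of all genes, Tap1 having the largest weakest difference at -0.22. Of the 10 leukocyte markers annotated, 3 passed the filter, and their list's summed intensity was 1213 in OZ serum and 1337 in LZ serum, against 1335 in the high and 1056 in the low glucose control; whether such cells have a part in these values was not tested.

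Mmp13, which encodes a collagenase, was at 6.11 in OZ serum and 6.31 in LZ serum, against 6.89 in the high and 7.18 in the low glucose control. Anxa8, an annexin gene, was at 8.74 in OZ serum and 8.64 in LZ serum, against 9.31 in the high and 9.65 in the low glucose control. F2rl2, a receptor of the thrombin-activated family, was at 7.75 in OZ serum and 7.64 in LZ serum, against 8.20 in the high and 8.46 in the low glucose control. Both serum values of Mmp13 were below the filter level. In Anxa8 and F2rl2 the serum values lay apart from the controls by more than the sera or the controls did from each other. Serpinb2, a plasminogen activator inhibitor gene, was at 7.28 in OZ serum and 6.87 in LZ serum, against 7.68 in the high and 9.99 in the low glucose control. Its controls differed by -2.32, so the serum difference was -0.39 or -0.81 against the high glucose control and -2.71 or -3.12 against the low one. Across 19 measured coagulation and fibrinolysis genes, 6 were lower and 3 higher, against 19.7% and 8.83% of all genes. The list's 4 medians were of both signs. The thrombomodulin gene Thbd had a weakest difference of -0.25 and the tissue plasminogen activator gene Plat -0.17. Ptger4, a prostaglandin receptor gene, had -0.37, Tnfsf18, a ligand of the tumour necrosis factor family, -0.45, Clec2d2 -0.42 and Cox6a2, a cytochrome oxidase subunit gene of muscle and heart, -0.46. The 4 differences of Cox6a2 all lay between -0.50 and -0.46.

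Genes of the circadian clock gave 8 lower and 0 higher of 16 measured, with list medians of -0.14 and -0.09 for OZ serum and -0.06 and -0.09 for LZ serum. Over all genes 19.7% were lower. With the stricter filter the list's medians no longer had one sign. Ciart, a repressor of the clock, was at 7.60 in OZ serum and 7.49 in LZ serum, against 7.96 in the high and 7.94 in the low glucose control. Tef and Dbp, transcription factor genes of the clock output, had weakest differences of -0.19 and -0.10, and Per3 -0.10. Per1 went against one sign, at 8.46 in OZ serum and 9.07 in LZ serum, against 8.27 in the high and 8.51 in the low glucose control. Among cell-cycle inhibitors and p53 targets, 8 of 19 were lower and 0 higher, Eda2r having the largest weakest difference at -0.15. Of 22 immediate early genes, which serum is known to induce when added to starved cells, 4 were lower and 2 higher, close to the shares over all genes. Fos was at 6.53 in OZ serum and 6.60 in LZ serum, against 6.77 in the high and 6.58 in the low glucose control, and Egr1 was likewise mixed in sign. Both serum values of Fos and its low glucose control value were below the filter level.

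Genes of mitosis gave no one-signed difference in any of 26 measured members, and most serum values lay above the high glucose control and near or below the low one. List medians were 0.44 and -0.05 for OZ serum against the high and low glucose control, and 0.14 and -0.32 for LZ serum, with -0.48 between the high and low glucose control. Mki67, the proliferation marker, was at 10.90 in OZ serum and 10.54 in LZ serum, against 10.47 in the high and 10.89 in the low glucose control. Against the high glucose control alone, 24 of the 26 genes were higher in both sera, compared with 25.7% of all genes. Against the low glucose control alone, 14 were lower, compared with 45.1% of all genes. In OZ serum alone 12 were above both controls (21.9% of all genes were), and in LZ serum alone 2 were below both (29.3% of all genes were). DNA replication genes gave 3 of 32 lower and 0 higher, against 19.7% and 8.83% of all genes. Their list medians were 0.21 and -0.19 for OZ serum and 0.07 and -0.33 for LZ serum.

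Small leucine-rich proteoglycan genes gave 0 of 7 in either direction, with a high minus low glucose median of 0.65. Asporin, Aspn, was at 10.91 in OZ serum and 10.90 in LZ serum, against 11.16 in the high and 9.48 in the low glucose control. Of 19 collagen chain genes, 6 were lower and 0 higher, against 19.7% and 8.83% of all genes. The largest weakest difference of the list was that of Col8a2, at -0.19. Col6a3 had a weakest difference of -0.05 against the high glucose control, and differences of -1.53 and -1.62 against the low glucose control, at 8.19 in OZ serum and 8.11 in LZ serum, against 8.24 in the high and 9.73 in the low glucose control. Of 26 matrix protein and crosslinking genes, 4 were higher and 6 lower, and of 18 matrix protease and inhibitor genes 0 were higher and 5 lower. These counts stand beside the same shares of all genes, and the lists' high minus low glucose medians were -0.02 and 0.01. Has2, a hyaluronan synthase gene, was lower by at least 0.20 and P3h2, a collagen-modifying hydroxylase gene, higher by at least 0.13. Complement genes, with 1 of 11 higher (8.83% of all genes were) and 0 lower, also differed between the controls, by a median of 0.56.

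OZ serum was further from the controls than LZ serum in most of the kept genes. OZ lay below LZ and LZ below both controls in 1574 genes (13.6% of all past the filter), which were 69.4% of the lower ones. OZ lay above LZ and LZ above both controls in 623 genes (5.4%), 61.1% of the higher ones. Over all genes past the filter, OZ serum was below LZ serum in 58.1%. Over 55 lists with at least 3 measured genes, 3 had medians above 0 in all 4 differences, 15 had medians below 0 in all 4 and 37 were mixed.

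**Figure D4:**
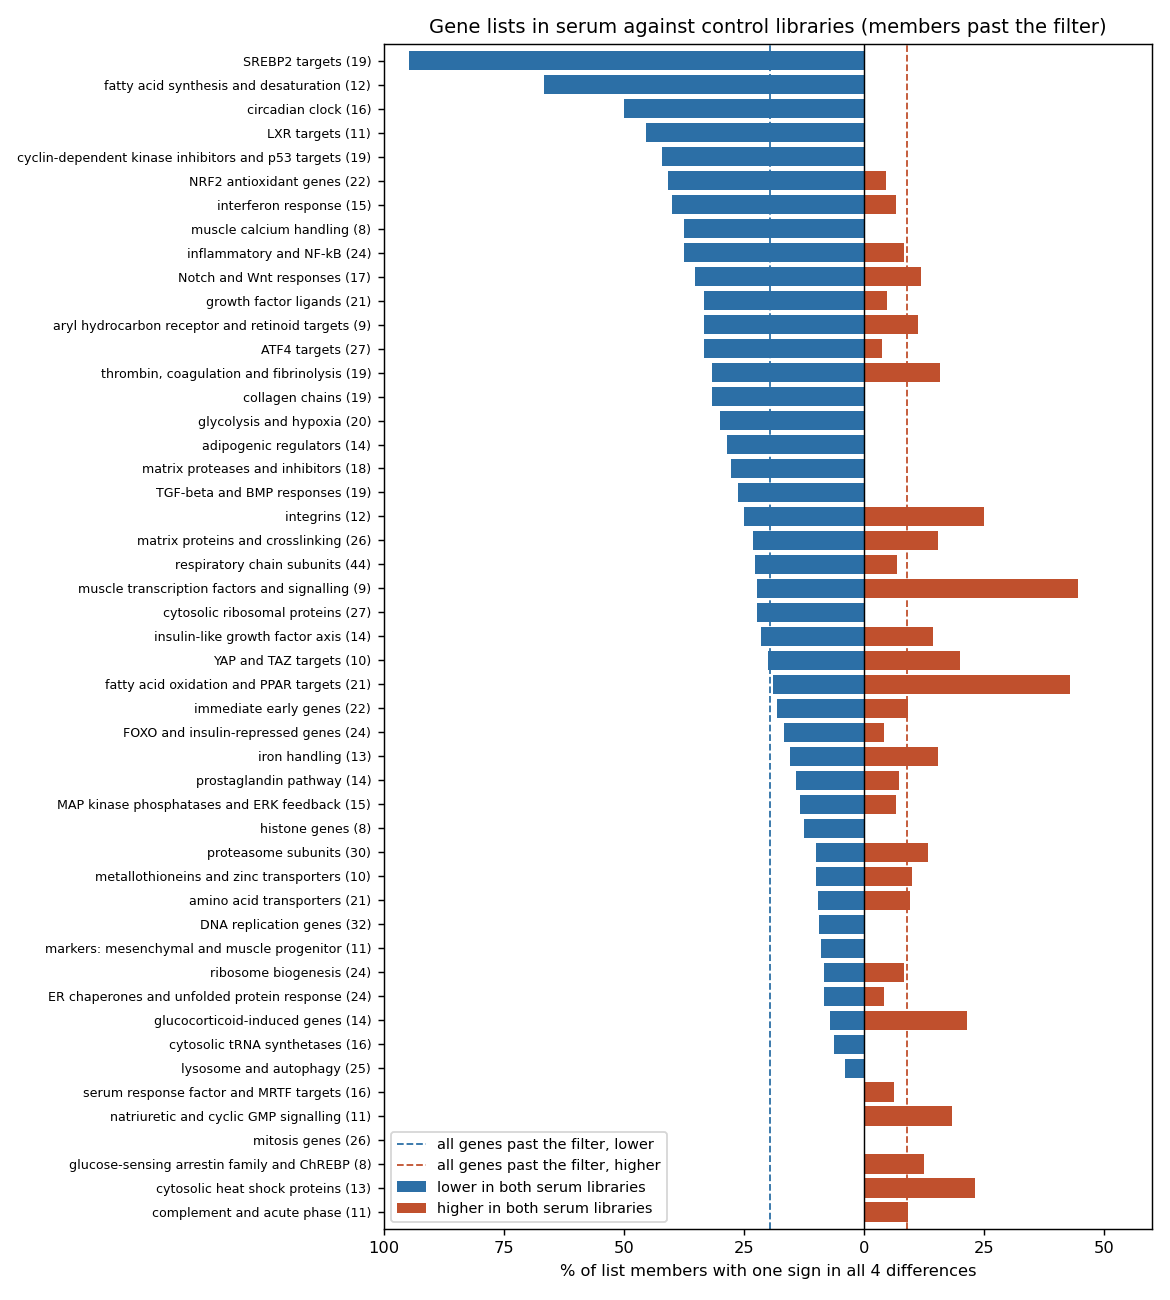
Bars to the left give the percentage of each list's measured members lower in both serum libraries than in both controls, bars to the right the percentage higher, with the number of members in brackets, for lists with at least 8 measured members. Dashed lines are the shares over all genes past the filter, 19.7% lower and 8.83% higher. SREBP2 targets, with 18 of 19, extend furthest to the left.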

How the data were processed

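Gene expression was measured in 6 libraries, each from 1 array, and the sample titles gave the groups. The authors deposited a linear intensity for each of 36685 probe sets on each array. How these deposited intensity values were background-corrected, summarised and normalized is not stated in the sources used. The arrays held no copies of each other (at most 32 identical values in a pair), and 0 other value columns were present.

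In the platform annotation 18511 probe sets carry 1 gene, 575 carry several and 17599 carry none. Only the first kind was used, and 18394 had an Entrez identifier in a RefSeq table of GRCr8, which changed 0 symbols. For 291 genes with more than 1 probe set, the brightest on average was used. A gene passed the filter when its mean over the 6 arrays reached the median of the whole table, log2 6.74 (intensity 107.2). Log2 was taken without an offset, and arrays were not rescaled. Promoters and their coordinates are from RefSeq (GRCr8).

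The members and gene lists were chosen with earlier results of these data known. Named genes are the 15 with the largest positive and the 15 with the largest negative weakest difference, up to 4 per list, and a fixed panel. For the first 2 kinds, provisional symbols, olfactory and vomeronasal receptor genes (Olr, Or, Vom, Vmn) and small RNA genes were passed over. The remaining SREBP2 and fatty acid genes, and Per1, Aspn, Mt2A, Tsc22d3, Vim and Pdgfrb, were named after their values were seen. Some panel genes are not reported here. There are 57 lists with 862 genes past the filter. The counting code was checked on simulated arrays with known changes, whose spread was taken from the difference between the 2 controls. That difference is one of condition and not array noise. The check covers the counting and supports none of the kept genes.

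Other settings tried were 3 normalizations (quantile, median centring, cyclic loess), no filter, a filter on the brightest array (log2 8.68, percentile 75), averaging a gene's probe sets, adding 32 before log2, leaving out 1 serum or 1 control library, and 2 other fold thresholds. The tools were Python 3.11.15, numpy 2.4.6, pandas 2.3.3, matplotlib 3.10.9, R 4.3.3 and, for normalization, limma 3.58.1.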

Additional observations from a re-analysis of the deposited data

Results flagged for a closer look

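Some lists and genes lay above both controls in one serum library and below both in the other. These differences were not tested, there being 1 array per condition, and each value is the difference from the nearer control on the log2 scale (for a list, the smaller of its 2 median differences). Glucocorticoid-induced genes had -0.020 in OZ serum and 0.18 in LZ serum. Within that list the metallothionein gene Mt2A was at 10.49 in OZ serum and 11.77 in LZ serum, against 10.68 in the high and 11.34 in the low glucose control. The glucocorticoid-induced regulator gene Tsc22d3 was at 8.40 in OZ serum and 8.93 in LZ serum, against 8.81 in the high and 8.58 in the low glucose control. Histone genes had 0.088 in OZ serum and -0.019 in LZ serum. Iron handling genes had -0.077 in OZ serum and 0.0053 in LZ serum. Abca1, the sterol exporter gene, had -0.12 in OZ serum and 0.097 in LZ serum.

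Smaller opposite values were found for 4 more items. Mesenchymal and muscle progenitor markers had -0.0040 in OZ serum and 0.028 in LZ serum, metallothioneins and zinc transporters -0.010 and 0.011, amino acid transporters -0.0071 and 0.0017, and Actb 0.013 and -0.015, in the same order of sera.

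Among 6207 probe sets past the filter that carry no gene name, and so entered no comparison by gene, 6 were at least 1.5-fold higher in both serum libraries than in both controls and 3 were lower. Probe sets that carry several genes were also left out and are not in this count. They cannot be named here.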

How the results depend on the processing

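As reported, 3287 genes had one sign in all 4 differences, 2 reached 1.5-fold, 707 had a weakest difference larger than both within-kind differences, and 18 lists had medians of one sign. Without a filter these became 5661, 7 and 1318 genes. The stricter filter gave 1889 and 348 for the first and the last of the gene counts, and 12 lists. The medians of the circadian clock, TGF-beta and BMP, muscle calcium handling, adipogenic, NRF2 and heat shock lists no longer had one sign. The adipocyte and the Schwann and neural marker lists no longer had 3 measured genes. Medians of the immediate early and the muscle transcription factor lists gained one sign, at -0.038 and 0.0098 for the weakest. LZ serum alone gave 5718, 12 and 2201 genes and 29 lists, and OZ serum alone 7333, 28 and 3375 genes and 36 lists. The high glucose control alone gave 7713, 15 and 3717 genes and 40 lists, and the low glucose control alone 8889, 83 and 5209 genes and 41 lists. These counts follow from the construction, since fewer differences had to share a sign or other genes were counted. At 2-fold the count was 0 and at a log2 threshold of 0.32 it was 27. Centring on the median moved the median OZ serum difference from the low glucose control to -0.10, so the split between higher and lower genes rests on scaling. Of 172 named genes with one sign, 164 had one sign under quantile normalization, 162 after centring and 168 after cyclic loess. None of these alternatives reversed the sign of a named gene or list median that had one sign. Some calls were lost and others gained, such as the interferon list median under quantile normalization and centring. SREBP2 targets had 18 of 19 lower under quantile normalization, centring and cyclic loess, and 16 of 17 with the stricter filter. Fatty acid synthesis genes had 9 of 12 lower after centring. No paired analysis was possible because each group has 1 array. Array noise was not measured, so no difference, whether near the median size of 0.04 or larger, can be told from it.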
